A study of Homo sapiens with 10 samples.

Results

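Nuclear factor kappa B (NF-kB) is a family of dimeric transcription factors, and the genes described here encode its subunits and the proteins that restrain it. They were chosen by name: the subunits NFKB1, NFKB2, REL, RELA and RELB, the inhibitors NFKBIA and NFKBIE, the deubiquitinase TNFAIP3, and BIRC3 and TRAF3, which act on the NF-kB-inducing kinase NIK. This choice was made with earlier results of these data known. Of these 10 genes, 9 had a probe set that the platform annotation names for a single gene, out of 19775 such genes. BIRC3 had none, so its expression was not analysed, and it enters only the promoter search. The 9 genes had 19 of the 54675 probe sets, and each gene was followed through its brightest one over the 10 arrays.

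The cells were MM.1S, an established human multiple myeloma line. RNA was taken 48 h after lentiviral infection from 5 groups of 2 arrays each: shHDAC3#1 and shHDAC3#2, hairpins against HDAC3; shDNMT1#1 and shDNMT1#2, hairpins against DNMT1; and shLuc, a luciferase hairpin as control. HDAC3 removes acetyl groups from histones within the NCoR and SMRT co-repressors, and DNMT1 copies DNA methylation onto newly made DNA. All groups carried a lentiviral hairpin, there was no uninfected group, and all came from a single cell line. The labels describe shLuc as the control of the HDAC3 hairpins, and the same 2 shLuc arrays were the only control for both knockdowns. Nothing in them tells whether replicate arrays were grown apart. Errors and p-values therefore cover the scatter among these arrays, which could be purely technical.

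In resting cells, most NF-kB dimers are held in the cytoplasm by IkB proteins. In the canonical pathway, receptors for TNF and similar ligands activate the IKK kinase complex, which marks the IkB protein IkB-alpha for destruction and frees dimers such as RELA with p50, the product of NFKB1. In the non-canonical pathway, receptors for BAFF, CD40 ligand and lymphotoxin stop TRAF3 and its partners from degrading NIK, and NIK then drives the processing of the NFKB2 product p100 to p52, the usual partner of RELB. Several inhibitors, IkB-alpha and TNFAIP3 (the protein A20) among them, are themselves switched on by NF-kB and end the response. In multiple myeloma, mutations in this pathway, TRAF3 loss among them, are frequent.

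Since several of these genes are known NF-kB targets, their promoters are shown first. The RefSeq promoter table of GRCh38.p14 held 8 of the 10 genes, in 12 windows, which were cut to the 250 bases before each transcription start and searched on both strands for the 10-base NF-kB consensus. At least 1 match was found for 7 of the 8 genes, BIRC3 among them, and in 8 of their 12 windows, against 5.21% of all 35116 promoter windows of that length. The promoters of TNFAIP3, called lower in both knockdowns, and of NFKBIA, called lower in the HDAC3 knockdown on its brightest probe set alone, are shown with those of NFKB1 and NFKB2, which encode the subunit precursors; capitals mark the consensus matches, and each window is written 5′ to 3′ along its gene's strand. They are the TNFAIP3 window at chr6:137867009-137867258 on the plus strand, the NFKBIA window at chr14:35404750-35404999 on the minus strand, the NFKB1 window at chr4:102501109-102501358 on the plus strand and the NFKB2 window at chr10:102394328-102394577 on the plus strand.
TNFAIP3: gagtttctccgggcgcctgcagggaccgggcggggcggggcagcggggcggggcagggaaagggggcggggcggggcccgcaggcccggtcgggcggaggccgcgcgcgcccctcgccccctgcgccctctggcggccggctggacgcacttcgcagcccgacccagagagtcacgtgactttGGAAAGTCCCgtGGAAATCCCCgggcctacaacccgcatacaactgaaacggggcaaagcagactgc
NFKBIA: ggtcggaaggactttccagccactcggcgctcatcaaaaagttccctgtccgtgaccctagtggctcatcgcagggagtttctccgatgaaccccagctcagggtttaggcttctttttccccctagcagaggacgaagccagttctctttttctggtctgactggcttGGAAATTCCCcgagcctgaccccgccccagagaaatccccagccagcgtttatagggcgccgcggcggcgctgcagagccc
NFKB1: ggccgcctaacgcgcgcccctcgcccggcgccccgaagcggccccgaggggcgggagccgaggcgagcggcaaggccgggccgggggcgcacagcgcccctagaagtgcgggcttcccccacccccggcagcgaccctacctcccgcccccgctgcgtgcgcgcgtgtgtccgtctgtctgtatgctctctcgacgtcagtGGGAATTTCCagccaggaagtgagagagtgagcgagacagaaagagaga
NFKB2: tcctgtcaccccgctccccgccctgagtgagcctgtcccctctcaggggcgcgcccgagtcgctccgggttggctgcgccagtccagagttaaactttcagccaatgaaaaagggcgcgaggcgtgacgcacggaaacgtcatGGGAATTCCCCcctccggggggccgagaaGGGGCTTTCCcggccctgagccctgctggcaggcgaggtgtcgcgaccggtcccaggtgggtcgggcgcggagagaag
In TNFAIP3 the matches lie 67 to 58 and 55 to 46 bases before the start. In NFKBIA the match lies 81 to 72 bases before it. The longer run of capitals in NFKB2 holds 2 overlapping matches. A match is a property of the letters alone, and binding was not measured.

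The values are log2 signals from the RMA method, so that a difference of 1 is a doubling. Called genes are those with an adjusted p under 0.05 in limma, after Benjamini-Hochberg adjustment over all 19775 genes. Each knockdown value averages both hairpins of a target (n = 4 arrays) and subtracts shLuc (n = 2). Adjusted p-values come from this model unless a probe set other than the brightest or another setting is named, and errors are standard errors (SE) unless SD is written.

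HDAC3 RNA in the HDAC3 knockdown was 44.2% of shLuc, a log2 change of -1.18 with an adjusted p of 1.2e-05. In the DNMT1 knockdown HDAC3 RNA was 77.7% of shLuc and was not called (-0.36, adjusted p = 0.11). DNMT1 RNA was 19.1% of shLuc in the DNMT1 knockdown (-2.39, adjusted p = 9.5e-12) and 52.7% in the HDAC3 knockdown (-0.92, adjusted p = 1.6e-06). Over all genes, arrays of 1 group correlated with r of 0.9937 to 0.9963, and arrays of different groups with r of 0.9748 to 0.9937. The shHDAC3#1 arrays stood apart in the ACTB gap (signal at the 3′ end minus that at the 5′ end), a sign of RNA integrity, which averaged 1 there and 0.711 to 0.737 in the other groups. The SD of the values was 1.843 to 1.915 on the knockdown arrays, against 1.943 and 1.929 on the shLuc arrays. Without shLuc replicate 1, the number of genes called was 1410 in place of 3801 for the HDAC3 knockdown, and 1365 in place of 3992 for the DNMT1 knockdown. Of 8 plasma cell markers, all had a mean of at least 6 in every knockdown group and 7 did in shLuc. Of 4 measured B cell markers, 3 had such a mean in shLuc, up to 7.97 for CD22, and the lowest, MS4A1, was at 3. So did 2 of 5 T cell markers and 1 of 4 monocyte markers in shLuc. The counts there were 1 of 2 for erythroid, 2 of 4 for fibroblast and 0 of 4 for epithelial markers. The fibroblast marker COL1A1, at 8.45, and the erythroid marker HBB, at 8.05, lay above the plasma cell marker CD38, at 5.9.

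Among the 9 genes, TNFAIP3 was the only one called lower in both knockdowns and with each of the 4 hairpins. Its decrease had already been seen in these same arrays, so its p-values and ranks describe it and are not independent support. It encodes A20, which removes and edits ubiquitin chains on signalling proteins such as RIPK1 and so shuts off canonical signalling. Its signal was 8.27 and 8.42 on the shHDAC3#1 arrays, 8.10 and 8.17 on shHDAC3#2, 8.64 and 8.43 on shDNMT1#1, and 8.06 and 8.03 on shDNMT1#2, against 9.45 and 9.22 on shLuc. No knockdown array reached the lower shLuc array. In the HDAC3 knockdown TNFAIP3 changed by -1.09 ± 0.09 (adjusted p = 2.7e-08), which left 46.9% of the shLuc signal, with a 95% interval of the change from -1.28 to -0.91. In the DNMT1 knockdown it changed by -1.04 ± 0.09 (adjusted p = 4.6e-08), which left 48.6%, with an interval from -1.23 to -0.86. These were the 108th and 137th lowest changes of the 19775 genes. In RNA from whole cultures, fewer cells that express a gene and less of its RNA in each cell cannot be told apart.

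The order of the 5 groups for TNFAIP3 was, from low to high, shDNMT1#2 at 8.05 ± 0.0258 (SD, n = 2), shHDAC3#2 at 8.14 ± 0.0501, shHDAC3#1 at 8.35 ± 0.102, shDNMT1#1 at 8.54 ± 0.147 and shLuc at 9.33 ± 0.163. Neighbouring groups did not overlap in their arrays, and differences were tested between hairpins of a target. The HDAC3 hairpins did not differ past the threshold, shHDAC3#2 minus shHDAC3#1 being -0.21 (adjusted p = 0.24). The DNMT1 hairpins did differ, where shDNMT1#2 minus shDNMT1#1 was -0.49 ± 0.10 (adjusted p = 0.0024), a call that was lost with the array SD as a covariate (-0.14, adjusted p = 0.77) and with both probe sets averaged (-0.33, adjusted p = 0.078). Against shLuc, the change was -0.99 for shHDAC3#1 (adjusted p = 3.9e-07), -1.20 for shHDAC3#2 (adjusted p = 5.4e-08), -0.80 for shDNMT1#1 (adjusted p = 2.1e-05) and -1.29 for shDNMT1#2 (adjusted p = 8e-09).

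A second, dimmer TNFAIP3 probe set was also lower in both knockdowns. It read 7.25 and 7.27 in shHDAC3#1, 6.91 and 7.10 in shHDAC3#2, 7.40 and 7.02 in shDNMT1#1, and 7.07 and 7.01 in shDNMT1#2, against 7.99 and 7.70 in shLuc. In a fit over all 54613 probe sets other than controls, it changed by -0.71 (adjusted p = 0.00012) in the HDAC3 knockdown and by -0.72 (adjusted p = 0.00012) in the DNMT1 knockdown. Its gap between the DNMT1 hairpins was -0.17 (adjusted p = 0.47), where the brightest probe set showed -0.49. Both TNFAIP3 probe sets carry the name suffix for probes that match several transcripts, which can be variants of the same gene. The TNFAIP3 call was kept in all 22 alternatives tried for the HDAC3 knockdown and in 20 of 22 for the DNMT1 knockdown. It was lost there with hairpin as a random block (-1.04, adjusted p = 0.054) and with the array SD as a covariate (-0.67, adjusted p = 0.064).

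**Figure D1:**
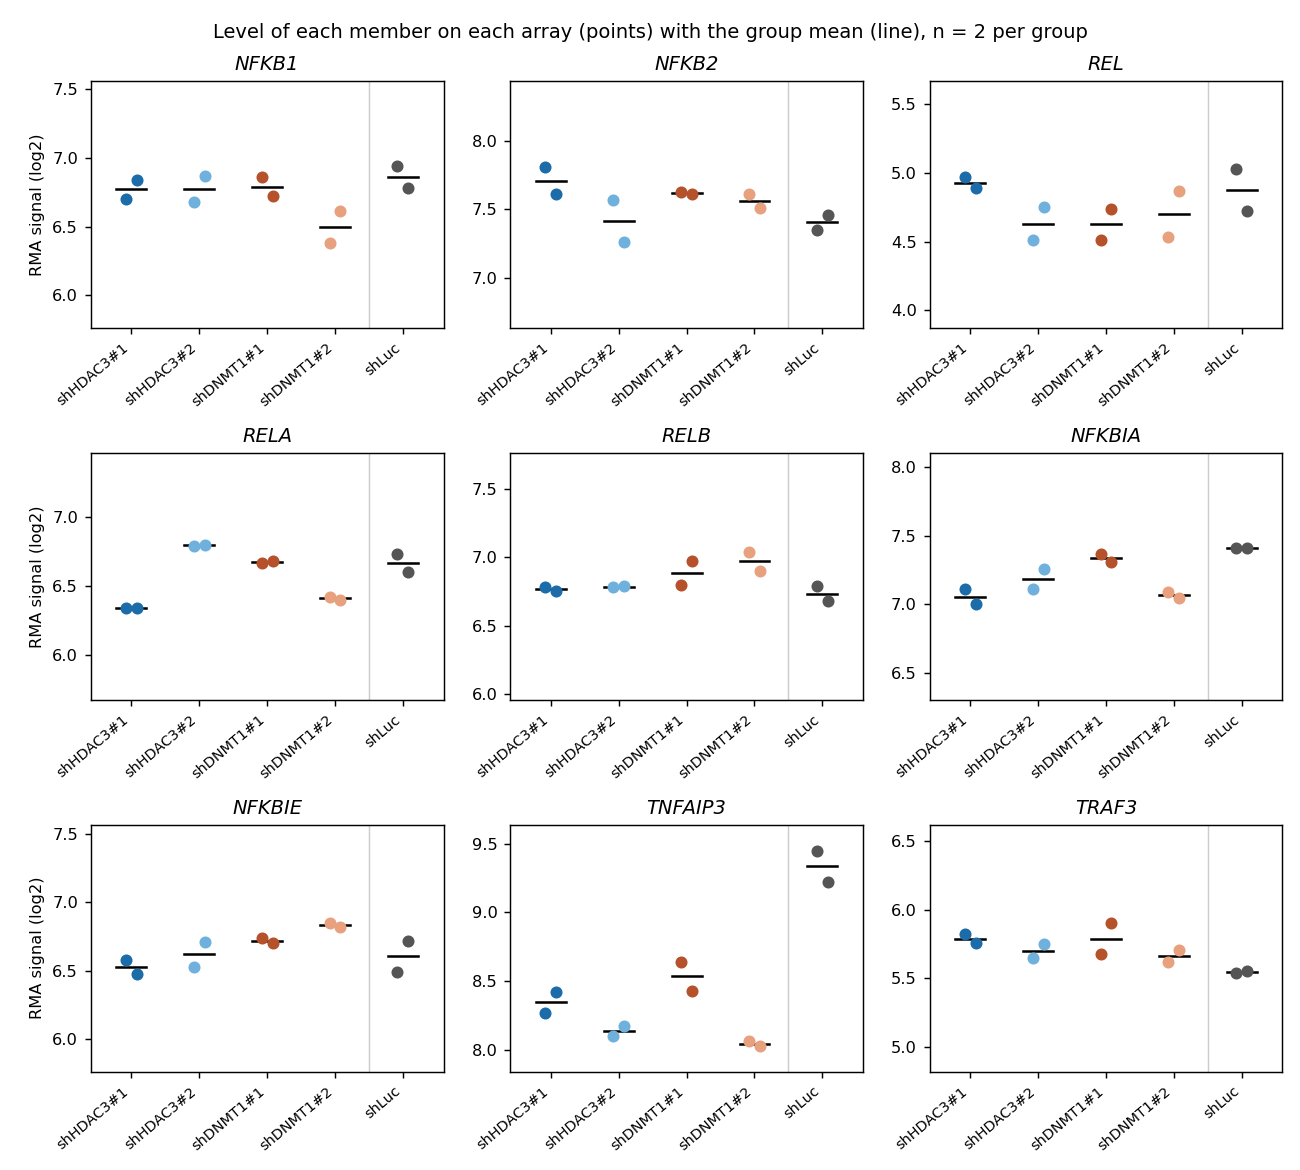
RMA signal on a log2 scale for each of the 9 genes on each of the 10 arrays, by hairpin; points are arrays, black lines are means of 2 arrays, and every panel spans the same range in log2 units. All 8 knockdown arrays of TNFAIP3, from 8.03 to 8.64, lie below the shLuc arrays at 9.22 and 9.45, while the NFKB1, REL, RELA and NFKBIE points of at least some knockdown arrays lie among those of shLuc.

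NFKBIA passed the test in the HDAC3 knockdown, with a smaller decrease, and not in the DNMT1 knockdown. It encodes IkB-alpha, which masks the nuclear localization signal of RELA dimers. Its signal was 7.11 and 7.0 in shHDAC3#1, 7.11 and 7.26 in shHDAC3#2, 7.37 and 7.31 in shDNMT1#1, and 7.09 and 7.05 in shDNMT1#2, against 7.41 and 7.41 in shLuc. All 8 knockdown arrays lay below both shLuc arrays, with shDNMT1#1 closest to them. The change was -0.29 ± 0.09 in the HDAC3 knockdown (adjusted p = 0.023), which left 81.7% of the shLuc signal, and -0.21 ± 0.09 in the DNMT1 knockdown (adjusted p = 0.10), which left 86.7%. The knockdowns did not differ past the threshold: HDAC3 minus DNMT1 was -0.09, with a 95% interval from -0.24 to 0.06.

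The NFKBIA call in the HDAC3 knockdown was lost when any of 4 arrays was left out: shLuc replicate 1 (-0.29, adjusted p = 0.16), shLuc replicate 2 (-0.29, adjusted p = 0.074), shHDAC3#1 replicate 2 (-0.26, adjusted p = 0.076) or shHDAC3#2 replicate 1 (-0.25, adjusted p = 0.10). It was also lost with its probe sets averaged (-0.15, adjusted p = 0.20), with the array SD as a covariate (-0.19, adjusted p = 1) and with hairpin as a random block (-0.29, adjusted p = 0.42). Counting also the settings with 1 hairpin alone and without cross-hybridizing probe sets, the call was kept in 14 of 23 alternatives. By hairpin, it was -0.36 for shHDAC3#1 (adjusted p = 0.014), -0.23 for shHDAC3#2 (adjusted p = 0.20), -0.07 for shDNMT1#1 (adjusted p = 0.72) and -0.34 for shDNMT1#2 (adjusted p = 0.018). The second NFKBIA probe set, with a mean of 5.66, did not show the decrease: its difference from shLuc was -0.01 (adjusted p = 0.98) in the HDAC3 knockdown and 0.27 (adjusted p = 0.11) in the DNMT1 knockdown. For shDNMT1#2 alone it was called higher, at 0.39 (adjusted p = 0.036), where the brightest probe set was called lower.

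NFKBIE, which encodes the related inhibitor IkB-epsilon, passed the test in neither knockdown. Its signal was 6.58 and 6.48 in shHDAC3#1, 6.53 and 6.71 in shHDAC3#2, 6.74 and 6.70 in shDNMT1#1, and 6.85 and 6.82 in shDNMT1#2, against 6.49 and 6.72 in shLuc. The change was -0.03 ± 0.10 (adjusted p = 0.85) in the HDAC3 knockdown and 0.17 ± 0.10 (adjusted p = 0.22) in the DNMT1 knockdown. The shDNMT1#2 arrays were the highest of the 5 groups.

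TRAF3, the adaptor that keeps NIK low in unstimulated cells, lay above shLuc on every knockdown array by its brightest probe set and did not pass the test. That probe set carries a name suffix for a match to several transcripts, which can cross-hybridize. It read 5.82 and 5.76 in shHDAC3#1, 5.65 and 5.75 in shHDAC3#2, 5.68 and 5.90 in shDNMT1#1, and 5.62 and 5.71 in shDNMT1#2, against 5.54 and 5.55 in shLuc. The change was 0.20 ± 0.10 (adjusted p = 0.18) in the HDAC3 knockdown and 0.18 ± 0.10 (adjusted p = 0.22) in the DNMT1 knockdown. A second TRAF3 probe set, with a mean of 5.07, had changes of the opposite sign, -0.27 (adjusted p = 0.21) in the HDAC3 knockdown and -0.05 in the DNMT1 knockdown. For shHDAC3#1 alone it was called lower, at -0.51 (adjusted p = 0.028), where the brightest probe set was at 0.24 and not called.

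Of the 5 subunits, limma called 0 in either knockdown taken as the mean of its hairpins; at an unadjusted p under 0.05 the counts were 0 for HDAC3 and 1, NFKB1, for DNMT1. RELA, which carries the transactivation domain of the canonical dimer, read 6.34 and 6.34 in shHDAC3#1, 6.79 and 6.80 in shHDAC3#2, 6.67 and 6.68 in shDNMT1#1, and 6.42 and 6.40 in shDNMT1#2, against 6.73 and 6.60 in shLuc. One hairpin of each target lay below the shLuc arrays and the other beside or above them. The knockdown means were therefore close to shLuc, at -0.10 ± 0.09 (adjusted p = 0.45) for HDAC3 and -0.12 ± 0.09 (adjusted p = 0.34) for DNMT1. The HDAC3 hairpins differed, shHDAC3#2 minus shHDAC3#1 being 0.45 ± 0.10 with a 95% interval from 0.24 to 0.67 (adjusted p = 0.0043). The lower one, shHDAC3#1, was called against shLuc at -0.33 (adjusted p = 0.028), in the hairpin whose ACTB gap was 1; the part of RNA integrity in this was not tested. On the second RELA probe set, the HDAC3 hairpins differed by 0.15 (adjusted p = 0.54), and no knockdown passed the test.

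NFKB1, the source of p50, read 6.70 and 6.84 in shHDAC3#1, 6.68 and 6.87 in shHDAC3#2, 6.86 and 6.72 in shDNMT1#1, and 6.38 and 6.61 in shDNMT1#2, against 6.94 and 6.78 in shLuc. It was lowest in shDNMT1#2, which alone passed against shLuc (-0.37, adjusted p = 0.027). The change was -0.09 ± 0.10 (adjusted p = 0.57) in the HDAC3 knockdown and -0.22 ± 0.10 (adjusted p = 0.14) in the DNMT1 knockdown.

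NFKB2, the source of p52, read 7.81 and 7.61 in shHDAC3#1, 7.57 and 7.26 in shHDAC3#2, 7.63 and 7.61 in shDNMT1#1, and 7.61 and 7.51 in shDNMT1#2, against 7.35 and 7.46 in shLuc. All DNMT1 arrays were above both shLuc arrays, and shHDAC3#2 spread around them. The change was 0.16 ± 0.10 (adjusted p = 0.27) in the HDAC3 knockdown and 0.18 ± 0.10 (adjusted p = 0.19) in the DNMT1 knockdown. The other NFKB2 probe sets, with means of 6.13 and 3.92, differed from shLuc by 0.12 to 0.35 in the knockdowns, none of them past the threshold. For shDNMT1#2 alone, the dimmer of them was called higher, at 0.45 (adjusted p = 0.04). RELB, its partner, read 6.78 and 6.75 in shHDAC3#1, 6.78 and 6.79 in shHDAC3#2, 6.80 and 6.97 in shDNMT1#1, and 7.04 and 6.90 in shDNMT1#2, against 6.79 and 6.68 in shLuc. Its difference from shLuc was 0.04 ± 0.09 (adjusted p = 0.78) in the HDAC3 knockdown and 0.19 ± 0.09 (adjusted p = 0.15) in the DNMT1 knockdown.

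REL, the c-Rel subunit that matters most in B and T lymphocytes, was dim. Its brightest probe set read 4.97 and 4.89 in shHDAC3#1, 4.51 and 4.75 in shHDAC3#2, 4.51 and 4.74 in shDNMT1#1, and 4.53 and 4.87 in shDNMT1#2, against 5.03 and 4.72 in shLuc. Knockdown and shLuc arrays overlapped, with changes of -0.10 ± 0.13 (adjusted p = 0.61) for HDAC3 and -0.22 ± 0.13 (adjusted p = 0.23) for DNMT1. Near the background, RMA compresses differences, so these values are a weak test.

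One of the 5 REL probe sets behaved differently. It had a mean of 4.38 and read 4.72 and 5.15 in shHDAC3#1, 4.45 and 4.51 in shHDAC3#2, 4.34 and 4.40 in shDNMT1#1, and 3.86 and 4.01 in shDNMT1#2, against 4.14 and 4.23 in shLuc. It rose by 0.52 (adjusted p = 0.0062) in the HDAC3 knockdown, with 0.75 for shHDAC3#1 (adjusted p = 0.00081) and 0.29 for shHDAC3#2 (adjusted p = 0.31). The other 4 REL probe sets differed from shLuc by -0.10 to -0.03 in that knockdown, none past the threshold. Over all 19 probe sets, 4 were called in the HDAC3 knockdown, 3 lower and this REL probe set higher, where 12.3% of all probe sets were called, and 2 in the DNMT1 knockdown, both of TNFAIP3, where 13.3% were.

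**Figure D2:**
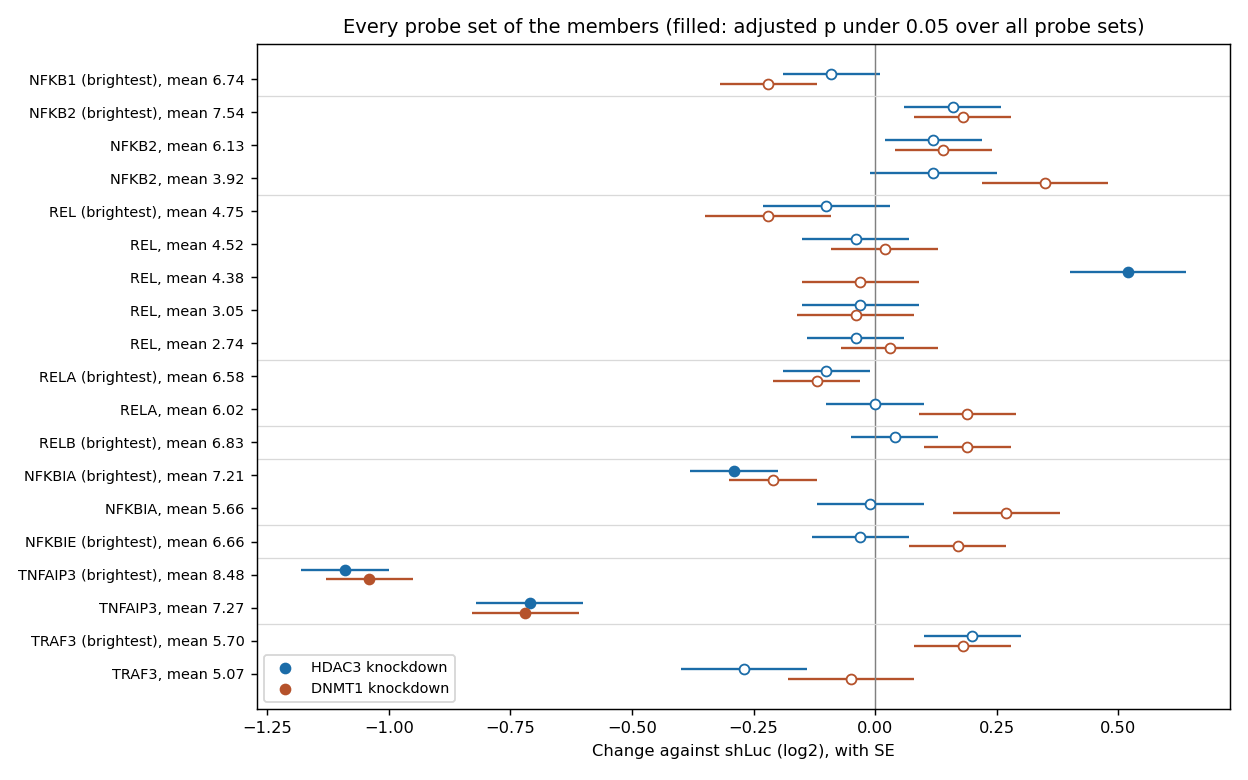
Change against shLuc in log2 units for all 19 probe sets of the 9 genes, labelled with their mean level; bars are SE, and filled points passed an adjusted p under 0.05 over all probe sets. Both TNFAIP3 probe sets are lower in both knockdowns, at -1.09 and -1.04 and at -0.71 and -0.72, while the NFKBIA, REL and TRAF3 probe sets of a gene differ from each other.

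Counted over the 9 genes, 2 were called in the HDAC3 knockdown, TNFAIP3 and NFKBIA, both lower, where 19.2% of all genes were called and 15.3% were called lower. In the DNMT1 knockdown 1 gene was called, TNFAIP3, lower, where 20.2% of all genes were called and 13.5% were called lower. The median change of the 9 genes was -0.09 in the HDAC3 knockdown and -0.12 in the DNMT1 knockdown, against 0.05 and 0.07 over all genes. The middle 90% of all genes, between the 5th and 95th percentiles, ran from -0.59 to 0.28 in the HDAC3 knockdown and from -0.56 to 0.31 in the DNMT1 knockdown. TNFAIP3 was the only one of the 9 genes outside these ranges. Arrays that did not overlap with shLuc were found for 3 of 9 genes in the HDAC3 knockdown (TNFAIP3 and NFKBIA lower, TRAF3 higher), against 37.9% of all genes, and for 5 of 9 genes in the DNMT1 knockdown (TNFAIP3 and NFKBIA lower, NFKB2, RELB and TRAF3 higher), against 34.1%.

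The knockdowns were also compared with each other. On their brightest probe sets, none of the 9 genes differed past the threshold, where 9.59% of all genes did. At an unadjusted p under 0.05 the count was 1, NFKBIE, at -0.20 (adjusted p = 0.13) for HDAC3 minus DNMT1. TNFAIP3 differed by -0.05, with a 95% interval from -0.20 to 0.10 (adjusted p = 0.75), and RELB by -0.15 (adjusted p = 0.25). The REL probe set with a mean of 4.38 did pass, at 0.56 (adjusted p = 0.0011 in the fit over all probe sets). This comparison does not use the shLuc arrays. Between the HDAC3 hairpins 1 of the 9 genes was called, RELA, where 12.6% of all genes were, and between the DNMT1 hairpins 1 was, TNFAIP3, where 12% of all genes were. Against shLuc, shHDAC3#1 and shDNMT1#2 each called 3 of the 9 genes, where 24.4% and 26.8% of all genes were called; shHDAC3#2 and shDNMT1#1 each called TNFAIP3 alone, where 10.9% and 8.15% were.

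**Figure D3:**
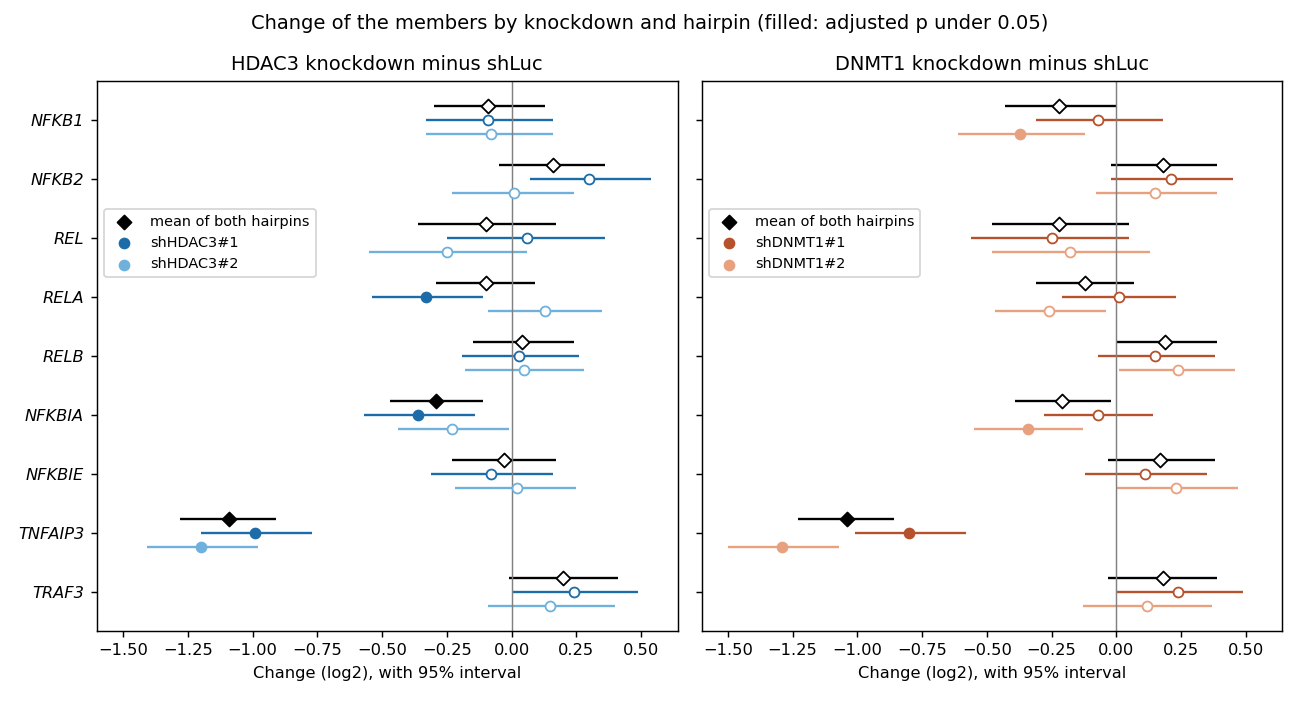
Change against shLuc in log2 units for the 9 genes, with the mean of the hairpins as black diamonds and each hairpin as circles; bars are 95% intervals, and filled symbols passed an adjusted p under 0.05. TNFAIP3 lies between -1.29 and -0.80 for every hairpin, RELA lies at -0.33 for shHDAC3#1 and at 0.13 for shHDAC3#2, and NFKBIA passed for shHDAC3#1 and shDNMT1#2.

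A20 acts with partners that were measured too. It works in a complex with the adaptor TAX1BP1 and the ubiquitin ligases ITCH and RNF11, and TNIP1 (ABIN-1) brings it to ubiquitin chains; CYLD is a separate deubiquitinase of the same pathway. In a list of 20 other NF-kB inhibitors that holds these 5 genes, 18 were measured. In the HDAC3 knockdown limma called 6 lower and 0 higher (2 higher at an unadjusted p under 0.05), where 15.3% of all genes were called lower and 3.96% higher. In the DNMT1 knockdown 4 were called lower and 1 higher, where 13.5% of all genes were called lower and 6.66% higher. The median change of the list was -0.08 in the HDAC3 knockdown and 0.04 in the DNMT1 knockdown, against 0.05 and 0.07 over all genes. Without shLuc replicate 1, the inhibitors called lower numbered 3 in the HDAC3 knockdown and 1 in the DNMT1 knockdown.

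TAX1BP1 was lower with both HDAC3 hairpins. It read 8.73 and 8.79 in shHDAC3#1 and 8.60 and 8.74 in shHDAC3#2, against 9.36 and 9.20 in shLuc, a change of -0.56 ± 0.08 (adjusted p = 4.4e-05). In the DNMT1 knockdown TAX1BP1 changed by -0.30 (adjusted p = 0.022 in the fit over all probe sets), with its arrays at 8.77 to 9.15. TNIP1 was low on the shHDAC3#1 arrays alone, at 6.60 and 6.58 there and 7.74 and 7.92 in shHDAC3#2, against 8.09 and 7.99 in shLuc. Its change of -0.83 ± 0.10 in the HDAC3 knockdown (adjusted p = 2e-06) was the mean of hairpins that differed by 1.24 (adjusted p = 4.9e-08). A second TNIP1 probe set, with a mean of 6.17, differed from shLuc by -0.21 in that knockdown (adjusted p = 0.23). In the DNMT1 knockdown the brightest TNIP1 probe set changed by -0.21 (adjusted p = 0.16 in the fit over all probe sets). CYLD read 6.38 and 6.47 in shHDAC3#1 and 7.07 and 7.02 in shHDAC3#2, against 7.58 and 7.47 in shLuc. It changed by -0.79 ± 0.11 in the HDAC3 knockdown (adjusted p = 1.7e-05) and by -0.45 ± 0.11 in the DNMT1 knockdown (adjusted p = 0.0053), the second lost without shLuc replicate 1 (-0.40, adjusted p = 0.14). These values are those of the brightest of its 7 probe sets. Of the other 6, 1 was called in the HDAC3 knockdown (-0.39, adjusted p = 0.0094) and the rest differed from shLuc by -0.21 to 0.23; in the DNMT1 knockdown they differed by -0.24 to 0.25 and 0 were called. The shHDAC3#1 arrays, lowest for TNIP1 and CYLD, are those with the ACTB gap of 1, whose part was not tested.

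RNF11 showed the largest DNMT1 change among the inhibitors. It read 7.69 and 7.28 in shDNMT1#1 and 6.28 and 6.64 in shDNMT1#2, against 8.16 and 8.10 in shLuc, a change of -1.16 ± 0.12 (adjusted p = 4.1e-07). The DNMT1 hairpins differed by -1.03 (adjusted p = 1.4e-05). In the HDAC3 knockdown RNF11 changed by -0.45 (adjusted p = 0.014 in the fit over all probe sets). It read 7.92 and 8.11 in shHDAC3#1 and 7.21 and 7.46 in shHDAC3#2. ITCH fell by 0.42 in the DNMT1 knockdown (adjusted p = 0.0058), at 6.23 and 6.09 in shDNMT1#1 and 5.98 and 6.16 in shDNMT1#2, against 6.58 and 6.50 in shLuc; without shLuc replicate 1 its call was lost (-0.38, adjusted p = 0.12). Of the other 5 ITCH probe sets, 1 was called in that knockdown (-0.42, adjusted p = 0.043). In the HDAC3 knockdown the brightest ITCH probe set changed by -0.36 (adjusted p = 0.024 in the fit over all probe sets). Its HDAC3 arrays, at 6.01 to 6.31, also lay below shLuc.

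HDAC3 minus DNMT1 was -0.63 for TNIP1 (adjusted p = 1e-05), -0.26 for TAX1BP1 (adjusted p = 0.017), -0.34 for CYLD (adjusted p = 0.017), 0.70 for RNF11 (adjusted p = 2.8e-05) and 0.06 for ITCH (adjusted p = 0.74). For TNIP1, TAX1BP1, CYLD and RNF11 the arrays of the HDAC3 and DNMT1 hairpins overlapped. The shHDAC3#2 arrays of TNIP1, at 7.74 and 7.92, lay among the DNMT1 arrays, at 7.67 to 7.99. Those of RNF11, at 7.21 and 7.46, overlapped the shDNMT1#1 arrays, at 7.69 and 7.28. Those of CYLD, at 7.07 and 7.02, lay among the DNMT1 arrays, at 6.74 to 7.32. For TAX1BP1 the HDAC3 arrays ran from 8.60 to 8.79 and the DNMT1 arrays from 8.77 to 9.15. With hairpin as a random block, 6 genes of all 19775 were called between the knockdowns, in place of 1897.

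Upstream of the IkB proteins, a list of 34 receptors, adaptors and kinases had 30 measured members. In the HDAC3 knockdown 8 were called lower and 1 higher, where 15.3% of all genes were called lower and 3.96% higher. In the DNMT1 knockdown 9 were called lower and 2 higher, where 13.5% and 6.66% were. The medians were -0.11 and -0.03, against 0.05 and 0.07 over all genes. The largest HDAC3 changes were those of TRAF5, an adaptor of TNF receptor family members, at -0.84 (adjusted p = 7.5e-06), BCL10, which links antigen receptors to IKK, at -0.68 (adjusted p = 3.3e-05), and TAB2, an adaptor of the kinase TAK1, at -0.62 (adjusted p = 0.00049). In all of them the hairpins differed, shHDAC3#2 minus shHDAC3#1 being 0.95 for TRAF5 (adjusted p = 1.1e-05), 0.76 for BCL10 (adjusted p = 6.5e-05) and 0.64 for TAB2 (adjusted p = 0.0018). The lower hairpin of all of these, shHDAC3#1, was the one with the ACTB gap of 1, against 0.711 to 0.737 in the other groups, and the part of this was not tested. The other BCL10 probe sets, with means of 4.07 and 2.43, differed from shLuc by 0.01 and 0.08 in the HDAC3 knockdown, and the other TRAF5 one, with a mean of 3.33, by -0.14 (adjusted p = 0.42). With shHDAC3#2 alone, 4 members of the list were called lower. In the DNMT1 knockdown TRAF5 changed by -0.47 (adjusted p = 0.0055 in the fit over all probe sets). TAB2 changed there by -0.27 (adjusted p = 0.12 in that fit), and its probe set with a mean of 4.88 by -0.37 (adjusted p = 0.034).

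In the DNMT1 knockdown, TNFRSF17, the receptor BCMA for the plasma cell survival ligands APRIL and BAFF, fell by 1.06 (adjusted p = 7.2e-09). It read 9.74 and 9.62 in shDNMT1#1 and 9.54 and 9.44 in shDNMT1#2, against 10.66 and 10.62 in shLuc, and it is also 1 of the 8 plasma cell markers, of which 6 were called lower in that knockdown and 1 higher. In the HDAC3 knockdown TNFRSF17 changed by -0.22 (adjusted p = 0.077 in the fit over all probe sets). There it read 10.79 and 10.87 in shHDAC3#1, above both shLuc arrays, and 9.92 and 10.12 in shHDAC3#2, below them. BCL10 fell by 0.81 in the DNMT1 knockdown (adjusted p = 4.6e-06), nearly all of it with shDNMT1#2, which read 6.11 and 6.13, beside 7.46 and 7.27 in shDNMT1#1 and 7.67 and 7.45 in shLuc. CHUK, the IKK-alpha kinase of the non-canonical pathway, fell by 0.63 in the DNMT1 knockdown (adjusted p = 0.014), with 1 shDNMT1#1 array at 4.70 and the other DNMT1 arrays between 5.74 and 6.0, against 6.25 and 6.09 in shLuc. In the HDAC3 knockdown it was not called (-0.06, adjusted p = 0.84). The CHUK call was lost without shLuc replicate 1 (-0.55, adjusted p = 0.27), shLuc replicate 2 (-0.70, adjusted p = 0.055) or shDNMT1#2 replicate 1 (-0.56, adjusted p = 0.055). Without shDNMT1#1 replicate 2, the array at 4.70, the change was -0.37 (adjusted p = 0.023). Without shLuc replicate 1, the upstream genes called lower numbered 4 in the DNMT1 knockdown.

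Downstream, a list of 37 genes that NF-kB is known to activate had 36 measured members. In the HDAC3 knockdown 8 were called lower and 2 higher, where 15.3% of all genes were called lower and 3.96% higher. The DNMT1 knockdown had 4 called lower and 2 higher, where 13.5% and 6.66% were. With each array left out in turn, the number called higher ran from 0 to 4 in the HDAC3 knockdown and from 1 to 4 in the DNMT1 knockdown. Without shLuc replicate 1, it was 0 and 1. The median change was 0.03 in each knockdown, against 0.05 and 0.07 over all genes. IL15, a cytokine that keeps lymphocytes alive, read 5.04 and 5.27 in shHDAC3#1, 5.57 and 5.51 in shHDAC3#2, 6.20 and 5.81 in shDNMT1#1, and 5.20 and 5.43 in shDNMT1#2, against 6.58 and 6.49 in shLuc. It fell by 1.19 in the HDAC3 knockdown (adjusted p = 3.3e-07) and by 0.88 in the DNMT1 knockdown (adjusted p = 1.4e-05), with every knockdown array below shLuc. TNFAIP8, a TNF-induced regulator of cell death, fell by 0.92 (adjusted p = 1.2e-06) in the HDAC3 knockdown and by 1.20 (adjusted p = 3.9e-08) in the DNMT1 knockdown. CD44, an adhesion receptor for hyaluronan, fell by 0.71 in the HDAC3 knockdown (adjusted p = 1.6e-06). In the DNMT1 knockdown it changed by -0.35 (adjusted p = 0.0055 in the fit over all probe sets), while its probe set with a mean of 8.27 rose by 0.30 (adjusted p = 0.022).

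CXCL10, a chemokine that interferons also induce, was higher in the DNMT1 knockdown. It read 5.76 and 5.63 in shDNMT1#1 and 7.54 and 7.33 in shDNMT1#2, against 5.20 and 5.03 in shLuc, and rose by 1.45 (adjusted p = 3.2e-08). The hairpins differed by 1.73 (adjusted p = 1.4e-08), shDNMT1#2 being the higher. In the HDAC3 knockdown CXCL10 rose by 0.39 (adjusted p = 0.037 in the fit over all probe sets). It read 6.01 and 6.41 in shHDAC3#2, above shDNMT1#1, and 4.92 and 4.70 in shHDAC3#1, below shLuc.

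**Figure D4:**
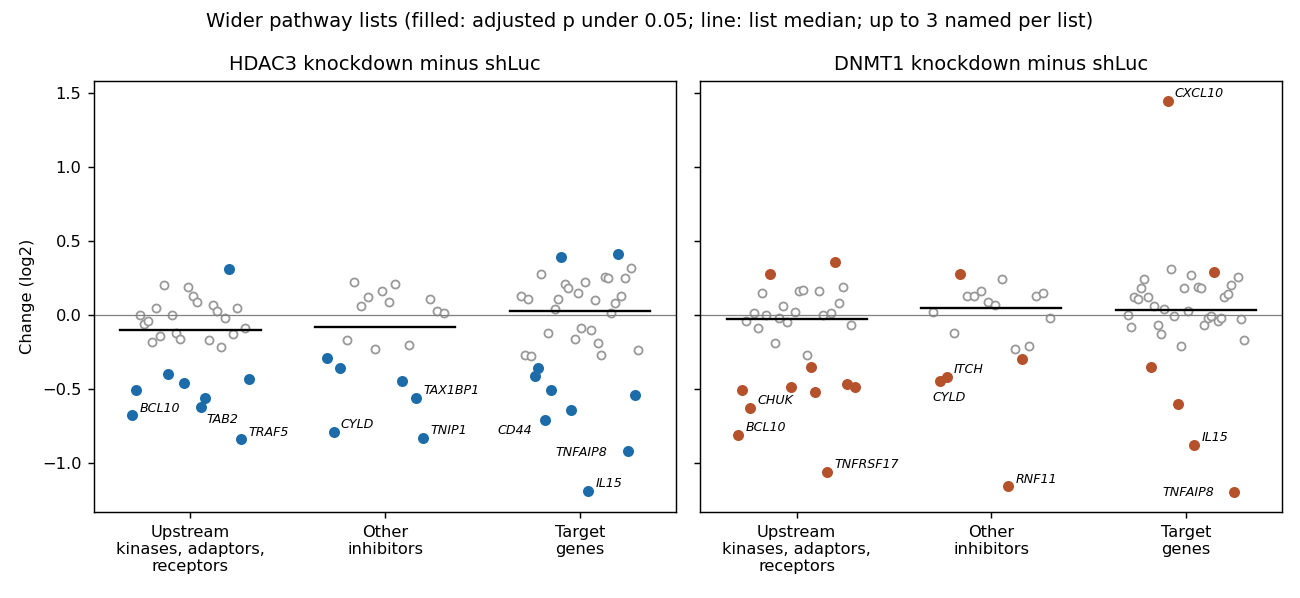
Change against shLuc in log2 units for the 3 wider lists, the HDAC3 knockdown on the left and the DNMT1 knockdown on the right; each point is a gene, filled points passed an adjusted p under 0.05, and lines are list medians. The list medians lie between -0.11 and 0.04, and the named genes are the called ones with the largest changes, from -1.20 for TNFAIP8 to 1.45 for CXCL10.

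With hairpin as a random block in limma, 0 of the 84 measured genes of these 3 lists were called in either knockdown, with 17 in the HDAC3 knockdown and 12 in the DNMT1 knockdown at an unadjusted p under 0.05. With the array SD as a covariate, 0 were called in the HDAC3 knockdown (12 at an unadjusted p under 0.05), and the genes that kept a call in the DNMT1 knockdown were TNFRSF17 (-0.72, adjusted p = 0.0084) and CXCL10 (1.86, adjusted p = 0.00063).

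The genes whose pattern over the 10 arrays was most like that of TNFAIP3, among 11286 genes with a mean of at least 6, were ERO1A, an oxidase of the endoplasmic reticulum (Pearson r = 0.989), TMEM14A (0.988), the replication helicase subunit MCM2 (0.983), the recombination factor RAD51AP1 (0.982) and the actin-bundling protein LCP1 (0.981). They changed by -0.88 to -0.58 in the HDAC3 knockdown and by -0.83 to -0.63 in the DNMT1 knockdown. The 5 genes most like NFKBIA were SEPTIN6 (0.971), PCMT1 (0.966), CDC27 (0.966), SH3GLB1 (0.965) and ATP6V1D (0.959). TNFAIP3 and NFKBIA correlated with r = 0.78. These values describe 10 arrays that share 5 groups, and r follows the group differences.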

How the data were processed

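The authors deposited log2 signals for 54675 probe sets of an Affymetrix 3′ array, summarised with RMA, as the submitters' processing notes say; this method subtracts background, equalizes the distributions of probe signals and combines the probes of each set. The sources used here give neither its version nor whether 1 run held all arrays. That the scale is log2 was judged from the values, which lay between 1.78 and 14.39. The number of arrays limits the precision.

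Of the probe sets, 41097 carried a single gene symbol, 1801 several and 11777 none; 41037 of the first kind matched the GRCh38.p14 gene table of RefSeq by gene ID. Only those with a single symbol were named, and the brightest over 10 arrays stood for its gene. The tests used limma 3.58.1 under R 4.3.3 (lmFit over all 5 groups with 5 residual degrees of freedom, eBayes with a trend, two-sided), tried first on simulated data. Each probe set was tested in a separate fit over 54613 probe sets. This error leaves out the variation between hairpins of a target.

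The members and lists were chosen with earlier results of these data known. All members are named; from each list, up to 3 called genes with the largest change per comparison; and the 5 genes most like TNFAIP3 and NFKBIA. Values of a named list gene in the other knockdown are given beside its own, with an adjusted p from the fit over all probe sets where this is stated. Alternatives covered the probe set filters, scaling, variance model, array weights, hairpin blocks and leaving out each array.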

Additional observations from a re-analysis of the deposited data

Results flagged for a closer look

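Hairpins of the same target differed past the threshold for 2 of the 9 genes. RELA was at 6.79 in shHDAC3#2 and 6.34 in shHDAC3#1, a difference of 0.45 (adjusted p = 0.0043), while its second probe set differed by 0.15 (adjusted p = 0.54). The shHDAC3#1 arrays also had an ACTB gap of 1, against 0.737 in shHDAC3#2, and the part of this was not tested. TNFAIP3 was at 8.05 in shDNMT1#2 and 8.54 in shDNMT1#1, a difference of -0.49 (adjusted p = 0.0024), while its second probe set differed by -0.17 (adjusted p = 0.47). With the array SD as a covariate the TNFAIP3 difference was -0.14 (adjusted p = 0.77), and with both probe sets averaged -0.33 (adjusted p = 0.078).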

How the results depend on the processing

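The number of the 9 genes called in the HDAC3 knockdown was 2. It was 1 with a gene's probe sets averaged, with the array SD as a covariate, with hairpin as a random block and with shHDAC3#2 alone, 3 with shHDAC3#1 alone, and 1 to 2 with each array left out in turn; where it was 1, NFKBIA was the gene lost. Leaving out probe sets whose names mark a match to several transcripts, which can cross-hybridize, left 7 genes, without TNFAIP3 and RELA, of which 0 were called in the HDAC3 knockdown, 0 in the DNMT1 knockdown and 0 between the DNMT1 hairpins; TRAF3 then rested on its second probe set, and shHDAC3#2 minus shHDAC3#1 for it was 0.49 (adjusted p = 0.046), against -0.09 otherwise. In the DNMT1 knockdown the number was 1, and it was 2 with arrays centred on their median, which added NFKBIA (-0.26, adjusted p = 0.038), 0 with the array SD as a covariate, 0 with hairpin as a random block, and 3 with shDNMT1#2 alone. Each array left out in turn gave 1 there. Between the HDAC3 hairpins the number was 1, and it was 2 with a further quantile normalization or the array SD as a covariate, which added TNFAIP3, and 1 to 2 with arrays left out, NFKB2 being added without shHDAC3#2 replicate 1 (-0.45, adjusted p = 0.033). Between the DNMT1 hairpins the number was 1, and it was 0 with a gene's probe sets averaged (TNFAIP3 at -0.33, adjusted p = 0.078) and 0 with the array SD as a covariate (-0.14, adjusted p = 0.77). Between the knockdowns it was 0 in all 21 alternatives. The causes were not tested. Over all genes, the number called ran from 73 with hairpin as a random block (consensus correlation 0.35) to 4834 with shHDAC3#1 alone in the HDAC3 knockdown, and from 31 to 5303, with shDNMT1#2 alone, in the DNMT1 knockdown. It was 114 and 119 with the array SD as a covariate, 2146 with shHDAC3#2 alone, 1611 with shDNMT1#1 alone, and 2469 in the HDAC3 knockdown without cross-hybridizing probe sets. Between the knockdowns it was 6 with hairpin as a random block, in place of 1897. The share of called genes that were lower was 79.4% in the HDAC3 knockdown and 67% in the DNMT1 knockdown, and 55.6% and 53.8% after a further quantile normalization. Whether equal replicate numbers mark paired samples is not known. Deviations of same-numbered arrays correlated with r of -0.34 to 0.27, over 0.1 in 2 of 10 pairs, which cannot tell how the samples were processed. With the number as a replicate block, 3416 and 3574 genes were called in the HDAC3 and DNMT1 knockdowns, and the count of the 9 genes stayed at 2 and 1.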
